A study of Mus musculus with 13 samples.

Results

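The genes described here are 9 liver genes that make, store, move or signal glucose: Pck1, G6pc, Fbp1, Pklr, Slc2a2, Gys2, Ppargc1a, Tat and Igfbp1. They were taken by gene symbol from a table of 53392 genes measured by RNaseq in whole liver, and all 9 were among the 14317 genes with enough counts to be tested. The 13 mice were young adult female littermates in 3 groups, and every mouse received 28% of its calories from ethanol for 4 weeks. All mice carried a doxycycline-responsive transactivator (rtTA) at Rosa26 behind a loxP-flanked stop, together with Albumin-Cre, which removes that stop in hepatocytes. ASAH+ mice also carried a transgene for the ceramide-hydrolysing enzyme acid ceramidase under a promoter that rtTA turns on when Dox is given, so induction is limited to the cells in which Albumin-Cre is active. The groups were ASAH− on Etoh-Dox (4 mice), ASAH+ on Etoh-Dox (5 mice), and ASAH+ on Etoh without Dox (4 mice). The study set them up to ask whether a difference in genotype or a difference in diet makes the better control for the transgene. In the deposited labels, titles of the ASAH+ samples name the Dox treatment the other way round from descriptions and induction entries, and the descriptions were used. No ASAH− mice without Dox were measured, so an effect of Dox itself and an effect of the transgene cannot be told apart where Etoh-Dox is compared with Etoh in ASAH+ mice, and the comparison of the uninduced groups differs in genotype and in Dox together.

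Asah1 mRNA, the target of the transgene, was at 48.7, 40.0, 53.7 and 55.0 CPM (counts scaled to the normalized library size) in ASAH− mice 1 to 4 on Etoh-Dox, at 10314, 9668, 15134, 12725 and 15935 CPM in ASAH+ mice 1 to 5 on Etoh-Dox, and at 46.8, 44.2, 46.8 and 48.3 CPM in ASAH+ mice 1 to 4 on Etoh. Every ASAH+ mouse on Etoh-Dox stood far above the other 8 mice, so the descriptions and not the titles matched the measured Asah1. Hepatocyte markers had a summed level of 83907.7 to 133512 CPM per mouse, led by Alb, and 4 of 5 kidney tubule markers (Umod, Slc12a1, Kap and Slc22a6) were at 0 in all 3 groups, as the label liver requires. Total counts ran from 17819486 in ASAH+ Etoh mouse 4 to 35358711 in ASAH+ Etoh-Dox mouse 1, and the least counted value of any of the 9 genes was 367 counts, for Ppargc1a.

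The liver keeps blood glucose up between meals by gluconeogenesis, in which lactate, glycerol and amino acids are turned back into glucose. Glucagon, through cyclic AMP, and glucocorticoids switch on the genes of this route, whereas insulin switches them off. It does so largely through the transcription factor FOXO1. After a meal the same cells take glucose up, burn it through glycolysis and store it as glycogen, and many of these genes also follow a daily rhythm set by the circadian clock.

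No difference in these 9 genes between groups passed the test. By the quasi-likelihood test of edgeR, with Benjamini-Hochberg adjustment over all 14317 genes, 0 of 9 had an adjusted p under 0.1 by genotype (ASAH+ against ASAH−, all on Etoh-Dox), where 0.014% of all genes did (2 genes). The same count, 0 of 9 beside 0.014%, held by Dox (Etoh-Dox against Etoh, all ASAH+) and again between the uninduced groups (ASAH− on Etoh-Dox against ASAH+ on Etoh). The edgeR p-values of the 9 genes after Benjamini-Hochberg adjustment were all 0.9997 in the comparison by genotype, 0.608 to 0.964 in the comparison by Dox, and 0.619 to 0.998 in the comparison of the uninduced groups. DESeq2, which called 11, 95 and 173 of all genes in these comparisons, and limma-voom, which called 2, 2 and 1, also called 0 of the 9 in each, although DESeq2 on all 13 mice gave Ppargc1a no adjusted p in the comparisons that use the Etoh group. At an unadjusted p under 0.05 there were 0 of 9 by genotype (2.86% of all genes), 2 of 9 by Dox, Fbp1 and Slc2a2 (7.29%), and 0 of 9 between the uninduced groups (9.19%). In 0 of 9 genes did the mice of the groups compared fail to overlap, beside 0.887%, 2.58% and 5.50% of all genes in these comparisons. The genes called over the whole table were Asah1 and Sod1 in both comparisons of the induced group, and mt-Co2 and mt-Co3 between the uninduced groups. Because whole liver was measured, fewer hepatocytes and less RNA per hepatocyte cannot be told apart in any value given here.

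**Figure D1:**
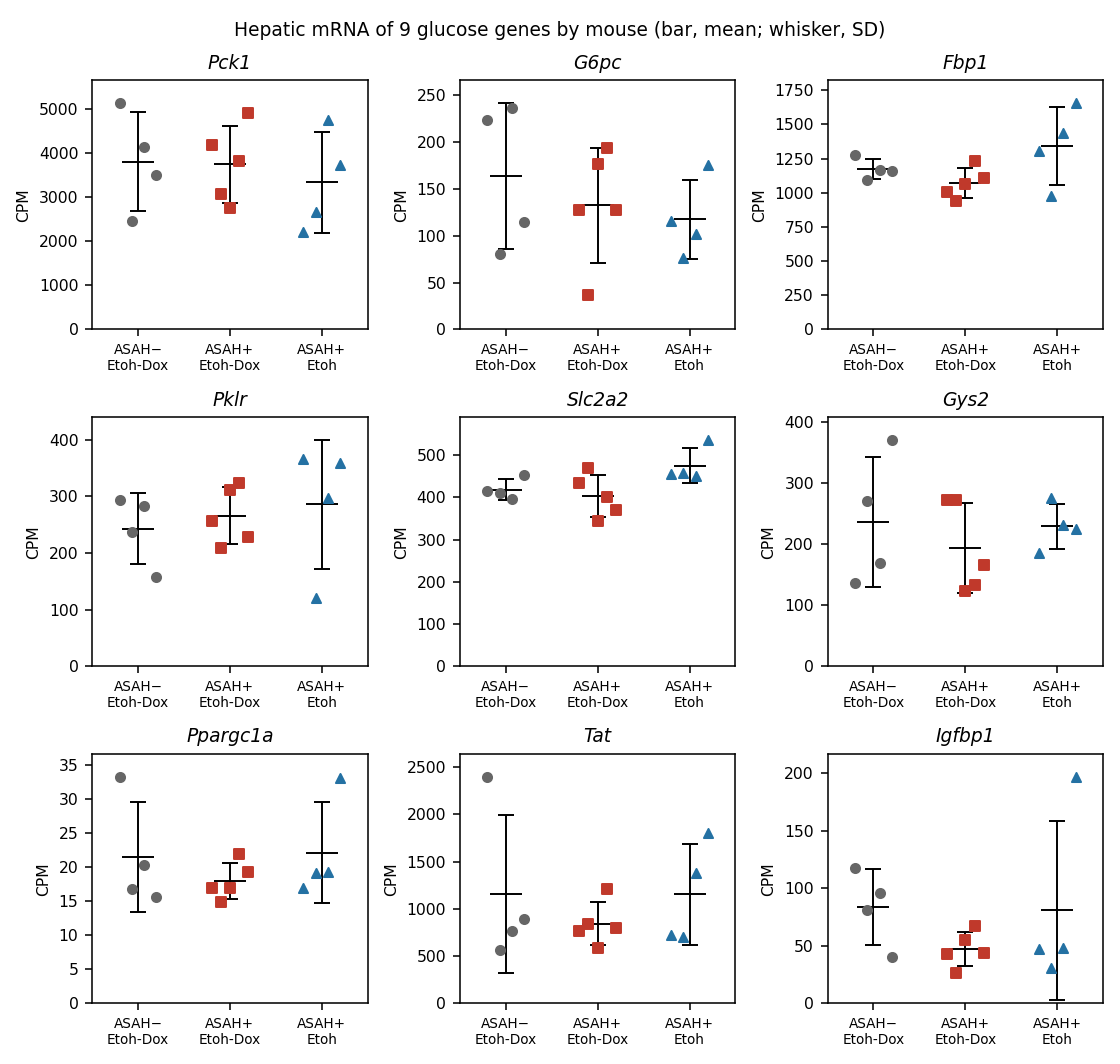
Level of each of the 9 genes in every mouse, in CPM on the y axis, by group on the x axis. Grey circles are ASAH− Etoh-Dox (n = 4), red squares ASAH+ Etoh-Dox (n = 5), blue triangles ASAH+ Etoh (n = 4), the bar is the mean and the whiskers are 1 SD. The groups overlap in all 9 panels, and single mice, such as ASAH+ Etoh mouse 4 at 197 CPM of Igfbp1, stand away from their group.

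Pck1 (ENSMUSG00000027513, chr2:173153048-173159273, + strand) codes for cytosolic phosphoenolpyruvate carboxykinase, which makes phosphoenolpyruvate from oxaloacetate at the entry of gluconeogenesis. Its promoter is known for a cyclic AMP response element, and the stretch around the match found there is shown because Pck1 is the member by which the hormonal control of this route is best known. Promoter windows of 250 bases before to 50 bases after the gene's start came from RefSeq (GRCm38.p6) and were found for 8 of the 9 genes, Gys2 being the other. The capitals mark TGACGTNA, read on the opposite strand, whose first base lies 93 bases before the RefSeq start. The stretch is chr2:173152920-173153047 on the + strand, upstream of the first exon.
Pck1: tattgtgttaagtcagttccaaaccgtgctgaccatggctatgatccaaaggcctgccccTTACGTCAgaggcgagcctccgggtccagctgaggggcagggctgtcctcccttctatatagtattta
TGACGTNA was found on either strand in 1 of the 8 windows and in 2.93% of 32851 windows of all genes. Its shorter core TGACG, which overlaps it, was in 2 of 8 (Pck1, and Ppargc1a at 49 bases before the start) and in 20.8% of all windows. Such a match describes the letters and does not show a factor bound there.

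Pck1 mRNA was at 5135, 2456, 4133 and 3495 CPM in ASAH− mice 1 to 4 on Etoh-Dox, at 4183, 3061, 2749, 3812 and 4898 CPM in ASAH+ mice 1 to 5 on Etoh-Dox, and at 2199.8, 2655, 4746 and 3734 CPM in ASAH+ mice 1 to 4 on Etoh. Each group held mice on both sides of the middle, and the highest mouse (ASAH− mouse 1) and the lowest (ASAH+ Etoh mouse 1) came from the groups without induced Asah1. As log2 fold changes, Pck1 differed by -0.025 (SE 0.25) for ASAH+ over ASAH− mice on Etoh-Dox, 0.17 (SE 0.25) for Etoh-Dox over Etoh in ASAH+ mice, and 0.19 (SE 0.27) for ASAH− Etoh-Dox over ASAH+ Etoh mice. The 95% interval by genotype, -0.57 to 0.53, runs from 0.671-fold to 1.44-fold. With 1 mouse left out Pck1 ran from 0.011 (without ASAH+ Etoh mouse 1) to 0.38 (without ASAH+ Etoh mouse 3) by Dox. For Pck1 the uninduced groups gave 0.012 (without ASAH− mouse 1) to 0.39 (without ASAH+ Etoh mouse 3).

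G6pc (ENSMUSG00000078650, chr11:101367561-101377903, + strand) codes for the catalytic subunit of glucose-6-phosphatase, which frees glucose at the last step of both gluconeogenesis and glycogen breakdown. Its promoter and that of Igfbp1 each held CAAAACA, the core of the element through which insulin represses both genes, and the 2 stretches are shown for that element. The capitals mark this core, which lies 174 bases before the RefSeq start of G6pc (opposite strand) and 108 bases before that of Igfbp1 (same strand). The stretches are chr11:101367482-101367560 and chr11:7197619-7197745 of GRCm38.p6, both on the + strand and both upstream of the first exon that GENCODE gives.
G6pc: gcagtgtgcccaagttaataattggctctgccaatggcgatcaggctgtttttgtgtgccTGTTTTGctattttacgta
Igfbp1: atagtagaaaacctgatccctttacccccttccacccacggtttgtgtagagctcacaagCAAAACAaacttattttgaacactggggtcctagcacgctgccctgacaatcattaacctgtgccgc
CAAAACA was in 2 of 8 windows of these genes and in 6.28% of all 32851. The FOXO site GTAAACA (3.65% of all windows), the D-box TTATGNAA (3.38%) and the E-box CACGTG (7.15%), both of the latter read by clock proteins, were in 0 of the 8 windows, which says only that these letters are not in these 300 bases.

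G6pc mRNA was at 223, 80.5, 236 and 114 CPM in ASAH− mice 1 to 4 on Etoh-Dox, at 127, 36.3, 177, 193 and 127 CPM in ASAH+ mice 1 to 5 on Etoh-Dox, and at 115, 76.5, 102 and 175 CPM in ASAH+ mice 1 to 4 on Etoh. ASAH− mice 1 and 3 were the highest of all and ASAH+ Etoh-Dox mouse 2 the lowest by a wide gap, so each of the Etoh-Dox groups spread more widely than the groups differed. For G6pc the log2 fold change was -0.31 (SE 0.45) by genotype, 0.17 (SE 0.45) by Dox and 0.48 (SE 0.48) between the uninduced groups. Its intervals were among the widest of the 9 genes, -1.29 to 0.67 by genotype, or 0.410-fold to 1.59-fold. With 1 mouse left out G6pc ran from -0.53 (without ASAH− mouse 2) to -0.066 (without ASAH+ Etoh-Dox mouse 2) by genotype. For G6pc the uninduced groups gave 0.24 (without ASAH− mouse 3) to 0.72 (without ASAH+ Etoh mouse 4).

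Fbp1 (ENSMUSG00000069805, chr13:62864753-62888282, - strand) codes for fructose-1,6-bisphosphatase, the step of gluconeogenesis that opposes phosphofructokinase. Fbp1 mRNA was at 1273, 1090.3, 1169 and 1161 CPM in ASAH− mice 1 to 4 on Etoh-Dox, at 1008, 941, 1066, 1234 and 1111 CPM in ASAH+ mice 1 to 5 on Etoh-Dox, and at 1306, 974, 1436 and 1657 CPM in ASAH+ mice 1 to 4 on Etoh. ASAH+ mice on Etoh held the 3 highest values (mice 4, 3 and 1) and also the second lowest (mouse 2), while the 9 mice on Etoh-Dox lay between 941 and 1273 CPM. Fbp1 averaged 1072 ± 111 CPM (mean ± SD of 5 mice) in ASAH+ mice on Etoh-Dox and 1343 ± 286 CPM (mean ± SD of 4 mice) in ASAH+ mice on Etoh. The log2 fold change was -0.33 (SE 0.13, 95% interval -0.60 to -0.050), lower on Etoh-Dox in 16 of 20 pairs of mice, with an unadjusted p of 0.0238 and a Benjamini-Hochberg adjusted p of 0.608 by the quasi-likelihood test of edgeR. An exact permutation of the 9 mice gave a two-sided p of 0.103, where 0.00794 is the smallest that 5 against 4 mice allow. Without ASAH+ Etoh mouse 4 the log2 fold change was -0.22, with an unadjusted p of 0.105 from edgeR. By genotype Fbp1 differed by -0.13 (SE 0.13) on the log2 scale, and between the uninduced groups by -0.19 (SE 0.14).

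Ppargc1a (ENSMUSG00000029167, chr5:51454250-51567726, - strand) codes for PGC-1α, a coactivator that fasting induces and that drives the genes of gluconeogenesis and of mitochondria. Ppargc1a mRNA was at 33.3, 16.8, 20.3 and 15.7 CPM in ASAH− mice 1 to 4 on Etoh-Dox, at 17.0, 14.9, 17.0, 21.9 and 19.3 CPM in ASAH+ mice 1 to 5 on Etoh-Dox, and at 16.9, 19.2, 19.3 and 33.1 CPM in ASAH+ mice 1 to 4 on Etoh. ASAH− mouse 1 and ASAH+ Etoh mouse 4 stood together above the other 11, which all lay between 14.9 and 21.9 CPM. Ppargc1a had a log2 fold change of -0.26 (SE 0.24) by genotype, which became 0.032 without ASAH− mouse 1. By Dox it was -0.30 (SE 0.24), which became -0.045 without ASAH+ Etoh mouse 4, and between the uninduced groups it was -0.039 (SE 0.25).

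Tat (ENSMUSG00000001670, chr8:109990437-109999803, + strand) codes for tyrosine aminotransferase, which starts the breakdown of tyrosine and is a classic glucocorticoid-induced gene of hepatocytes. Tat mRNA was at 2397, 565, 769.7 and 897 CPM in ASAH− mice 1 to 4 on Etoh-Dox, at 766, 844, 590.5, 1209.9 and 792 CPM in ASAH+ mice 1 to 5 on Etoh-Dox, and at 721, 705, 1379 and 1804 CPM in ASAH+ mice 1 to 4 on Etoh. ASAH− mouse 1 was again the highest and ASAH+ Etoh mouse 4 the next, while ASAH− mouse 2 was the lowest of all 13, so the ASAH− group spanned the whole range. By genotype the log2 fold change of Tat was -0.46 (SE 0.42), and its sign turned to 0.18 when ASAH− mouse 1 was left out. By Dox Tat differed by -0.45 (SE 0.42), and -0.16 without ASAH+ Etoh mouse 4. Between the uninduced groups the fitted value was 0.0063 (SE 0.45), and without ASAH− mouse 1 it was -0.63.

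Igfbp1 (ENSMUSG00000020429, chr11:7197782-7202546, + strand) codes for a secreted binding protein of insulin-like growth factors, is made by the liver and is repressed by insulin within hours. Igfbp1 mRNA was at 118, 81.5, 95.5 and 40.0 CPM in ASAH− mice 1 to 4 on Etoh-Dox, at 43.0, 26.5, 55.2, 67.2 and 44.0 CPM in ASAH+ mice 1 to 5 on Etoh-Dox, and at 47.4, 31.0, 48.0 and 197 CPM in ASAH+ mice 1 to 4 on Etoh. ASAH− mice 1, 2 and 3 stood above all 5 ASAH+ mice on Etoh-Dox, ASAH− mouse 4 fell among the latter, and ASAH+ Etoh mouse 4 exceeded the other 3 mice of its group by at least 4-fold. Igfbp1 averaged 83.8 ± 32.8 CPM (mean ± SD of 4 mice) in ASAH− and 47.2 ± 15.1 CPM (mean ± SD of 5 mice) in ASAH+ mice on Etoh-Dox. This was the greatest fitted difference of the 9 genes by genotype, a log2 fold change of -0.83 (SE 0.51, 95% interval -1.94 to 0.29), with ASAH+ lower in 16 of 20 pairs of mice. It did not pass the test, with an unadjusted p of 0.132 and a Benjamini-Hochberg adjusted p of 0.9997 by the quasi-likelihood test of edgeR, and a p of 0.0952 by the exact two-sided permutation test. Because all groups share 1 estimate of the spread, ASAH+ Etoh mouse 4 weighed on this p as well. Without that mouse the log2 fold change by genotype was -0.82, with an unadjusted p of 0.0232 and an adjusted p of 0.9992 from edgeR with Benjamini-Hochberg adjustment. By Dox the log2 fold change of Igfbp1 was -0.77 (SE 0.51) with all mice and 0.16 without ASAH+ Etoh mouse 4, and between the uninduced groups it was 0.054 (SE 0.54) with all mice and 0.97 without it.

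Pklr (ENSMUSG00000041237, chr3:89136142-89146784, + strand) codes for liver pyruvate kinase, the last step of glycolysis, which carbohydrate feeding raises through the factor ChREBP. Pklr mRNA was at 294, 238, 283 and 158 CPM in ASAH− mice 1 to 4 on Etoh-Dox, at 256, 209, 311, 323 and 229 CPM in ASAH+ mice 1 to 5 on Etoh-Dox, and at 365, 121, 297 and 359.7 CPM in ASAH+ mice 1 to 4 on Etoh. ASAH− mouse 4 and ASAH+ Etoh mouse 2 were the lowest and stood apart from the other 11, and ASAH+ Etoh mice 1 and 4 were the highest. Pklr had log2 fold changes of 0.13 (SE 0.29) by genotype, -0.10 (SE 0.28) by Dox and -0.23 (SE 0.30) between the uninduced groups, each smaller than its SE. Without ASAH+ Etoh mouse 1 the value by Dox was 0.037, and without ASAH− mouse 4 the value by genotype was -0.031.

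Slc2a2 (ENSMUSG00000027690, chr3:28697903-28731359, + strand) codes for GLUT2, the low-affinity transporter that lets glucose across the hepatocyte membrane in either direction. Slc2a2 mRNA was at 414, 411, 395 and 453 CPM in ASAH− mice 1 to 4 on Etoh-Dox, at 434, 468, 345, 401 and 369 CPM in ASAH+ mice 1 to 5 on Etoh-Dox, and at 456, 457, 449 and 536 CPM in ASAH+ mice 1 to 4 on Etoh. All 4 ASAH+ mice on Etoh were above 4 of the 5 ASAH+ mice on Etoh-Dox and above 3 of the 4 ASAH− mice, while ASAH+ Etoh-Dox mouse 2 reached into the Etoh range. Slc2a2 averaged 403 ± 49.4 CPM (mean ± SD of 5 mice) in ASAH+ mice on Etoh-Dox and 475 ± 40.9 CPM (mean ± SD of 4 mice) in ASAH+ mice on Etoh. The log2 fold change was -0.23 (SE 0.096, 95% interval -0.44 to -0.028), lower on Etoh-Dox in 17 of 20 pairs of mice, with an unadjusted p of 0.0287 and a Benjamini-Hochberg adjusted p of 0.619 by the quasi-likelihood test of edgeR. The exact two-sided permutation test gave 0.0714, and without ASAH+ Etoh mouse 4 the log2 fold change was -0.18 with an unadjusted p of 0.0980 from edgeR. Between the uninduced groups Slc2a2 differed by -0.18 (SE 0.10) on the log2 scale, ASAH− mice being lower in 15 of 16 pairs, with an exact permutation p of 0.0571 where 0.0286 is the smallest that 4 against 4 mice allow. These comparisons share the ASAH+ mice on Etoh, so they are not separate observations of that group. By genotype on Etoh-Dox the difference was -0.053 (SE 0.097).

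Gys2 (ENSMUSG00000030244, chr6:142422613-142473109, - strand) codes for liver glycogen synthase, which builds glycogen after a meal and whose mRNA is under direct control of the clock. Gys2 mRNA was at 136, 270.3, 169 and 371 CPM in ASAH− mice 1 to 4 on Etoh-Dox, at 273, 273, 124, 133 and 167 CPM in ASAH+ mice 1 to 5 on Etoh-Dox, and at 185, 276, 232 and 225 CPM in ASAH+ mice 1 to 4 on Etoh. Both Etoh-Dox groups held low mice (ASAH− 1 and 3, ASAH+ 3, 4 and 5) and high mice (ASAH− 2 and 4, ASAH+ 1 and 2), and the Etoh mice lay inside the range of the ASAH− group. Gys2 had log2 fold changes of -0.29 (SE 0.31) by genotype, -0.24 (SE 0.31) by Dox and 0.043 (SE 0.33) between the uninduced groups. Without ASAH− mouse 4, the highest in Gys2, these were 0.017 by genotype and -0.26 between the uninduced groups.

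Taken as a list, 8 of the 9 genes had a fitted level below that of ASAH− mice in ASAH+ mice on Etoh-Dox, with Pklr the other, and the median log2 fold change was -0.26 beside -0.0023 over all genes tested. By Dox in ASAH+ mice 7 of 9 were lower on Etoh-Dox, all except Pck1 and G6pc, with a median of -0.24 beside 0.013. Between the uninduced groups 5 were higher and 4 lower in ASAH− mice, with a median of 0.0063 beside 0.016. The first of these counts shares the ASAH+ Etoh-Dox mice with the next, and the genes vary together among mice, so the 9 directions are not independent. These counts and medians rested largely on single mice. Without ASAH− mouse 1, Pck1, Ppargc1a and Tat changed sign by genotype, which left 5 of 9 lower and a median of -0.058. Without ASAH+ Etoh mouse 4, Igfbp1 and Pklr changed sign by Dox, which left 5 of 9 lower and a median of -0.045. Over all 13 mice left out in turn the median ran from -0.26 to -0.058 by genotype, -0.36 to -0.045 by Dox and -0.18 to 0.20 between the uninduced groups.

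**Figure D2:**
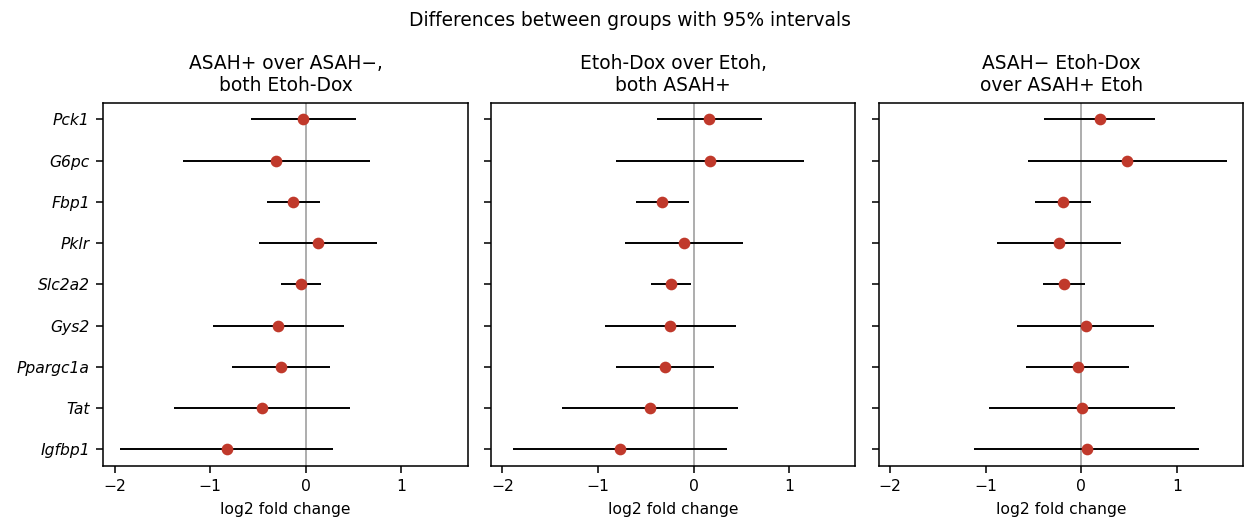
Log2 fold change of each of the 9 genes on the x axis with its 95% interval as a line, for the 3 comparisons named above the panels. The interval takes in 0 for every gene in the comparison by genotype and between the uninduced groups, and lies below 0 for Fbp1 (-0.60 to -0.050) and Slc2a2 (-0.44 to -0.028) by Dox before adjustment for the number of genes tested.

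Levels of different genes were compared as CPM per kb of merged exon, as means over the 13 mice. Pck1 mRNA was the most abundant at 1060.1 CPM per kb, followed by Fbp1 at 697, Tat at 429.8 and then a group of Gys2 at 82.1, Pklr at 81.9, Slc2a2 at 74.7 and G6pc at 56.8 CPM per kb. Igfbp1 came next at 45.1 and Ppargc1a last at 3.09 CPM per kb. Within single mice Pck1 exceeded Fbp1 in 12 of 13, Fbp1 exceeded Tat in 12 of 13 and Tat exceeded Gys2 in 13 of 13, on the same scale. Gys2 exceeded Pklr in 5 of 13 mice, Pklr exceeded Slc2a2 in 10, Slc2a2 exceeded G6pc in 9 and G6pc exceeded Igfbp1 in 10. The order of these neighbours thus changed from mouse to mouse, and their differences were not tested. Among the 9 genes Slc2a2 was the steadiest across mice, with a coefficient of variation of 11.4% in CPM, and Fbp1 next at 16.8%, beside a median of 17.1% over all genes tested. Igfbp1 (67.8%), Tat (52.1%) and G6pc (43.5%) varied more than 97.8%, 94.9% and 91.1% of all genes tested. The share of the variance in log2 CPM that lay between the 3 groups was 41.5% for Slc2a2, 32.6% for Fbp1 and 2.42 to 17.9% for the other 7 genes, beside a median of 14.4% over all genes.

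Most of the variation therefore lay within groups, and the same mice recurred. ASAH+ Etoh mouse 4 had the highest or second highest level of 6 of the 9 genes (Fbp1, Pklr, Slc2a2, Ppargc1a, Tat and Igfbp1), and ASAH− mouse 1 of 5 (Pck1, G6pc, Ppargc1a, Tat and Igfbp1). At the other end, ASAH+ Etoh-Dox mouse 2 and ASAH+ Etoh mouse 2 each had the lowest or second lowest level of 4 genes, G6pc, Fbp1 and Igfbp1 in both, with Ppargc1a in the former and Pklr in the latter. Genes that glucocorticoids are known to induce (10 genes, among them Fkbp5 and Tsc22d3) were on average 0.81 above their mean over the 13 mice on the log2 scale in ASAH− mouse 1 (9 of 10 above) and 0.71 above it in ASAH+ Etoh mouse 4 (8 of 10 above). In ASAH+ Etoh mice 1 and 2 the same genes were at -0.62 and -0.63, but ASAH+ Etoh-Dox mouse 2, lowest in 4 of the 9 genes, was at 0.063 with 7 of 10 above the mean. Genes that food raises (9 genes, among them Fasn) were at -0.88 in ASAH− mouse 4 and -0.46 in ASAH+ Etoh mouse 2, the mice lowest in Pklr, and at 0.58 in ASAH+ Etoh mouse 4, but at -0.015 in ASAH+ Etoh mouse 1, the mouse highest in Pklr. What part feeding, stress or collection time had in these mice was not tested.

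Of the 36 pairs among the 9 genes, 13 had a Pearson correlation of log2 CPM across the 13 mice with a Benjamini-Hochberg adjusted permutation p under 0.1 (11 positive and 2 negative), 14 did by Spearman's rho, and 11 by both. Pearson's r ran from -0.65 to 0.84 with a median of 0.39. The weakest r past the threshold was 0.60 in size, and 36.1% of the 36 pairs had an r of at least that size beside 6.17% of all pairs of genes tested. Ppargc1a and Tat had the highest r, 0.84 (permutation p = 0.00134, adjusted p = 0.0241), with a rho of 0.55 (permutation p = 0.0553, adjusted p = 0.118). Without the 2 mice farthest from the median of Ppargc1a, which were ASAH− mouse 1 and ASAH+ Etoh mouse 4, r was 0.41, so the relation rested on these mice. Ppargc1a and Igfbp1 had an r of 0.81 (permutation p = 0.00107, adjusted p = 0.0241) and a rho of 0.70 (permutation p = 0.00938, adjusted p = 0.0679). The r of Ppargc1a with Igfbp1 was 0.48 without the same 2 mice, on which it rested in part. G6pc and Igfbp1 had an r of 0.69 (permutation p = 0.00888, adjusted p = 0.071) and a rho of 0.70 (permutation p = 0.00998, adjusted p = 0.0679). This r was 0.58 without the 2 mice farthest from the median of G6pc and 0.69 after the group means were removed. Fbp1 and Igfbp1 had an r of 0.71 (permutation p = 0.0068, adjusted p = 0.071) and a rho of 0.66 (permutation p = 0.0165, adjusted p = 0.0679). This r was 0.66 without the 2 farthest mice and 0.78 with group means removed. Gys2 ran opposite to G6pc, with an r of -0.65 (permutation p = 0.0128, adjusted p = 0.071), a rho of -0.76 (permutation p = 0.0039, adjusted p = 0.0679) and -0.72 without the 2 farthest mice. The other negative relation past the threshold was that of Pklr with Gys2, at an r of -0.63 (permutation p = 0.0193, adjusted p = 0.071), a rho of -0.66 (permutation p = 0.017, adjusted p = 0.0679) and -0.43 without the 2 farthest mice. By Pearson's r Pck1 passed with Tat alone, at 0.64 (permutation p = 0.0182, adjusted p = 0.071) and a rho of 0.67 (permutation p = 0.0151, adjusted p = 0.0679). The r of Pck1 with Tat was 0.57 without the 2 farthest mice. Slc2a2 passed by the same measure with Gys2 alone, at 0.62 (permutation p = 0.0217, adjusted p = 0.071), with a rho of 0.68 (permutation p = 0.0125, adjusted p = 0.0679) and 0.64 without the 2 farthest mice.

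**Figure D3:**
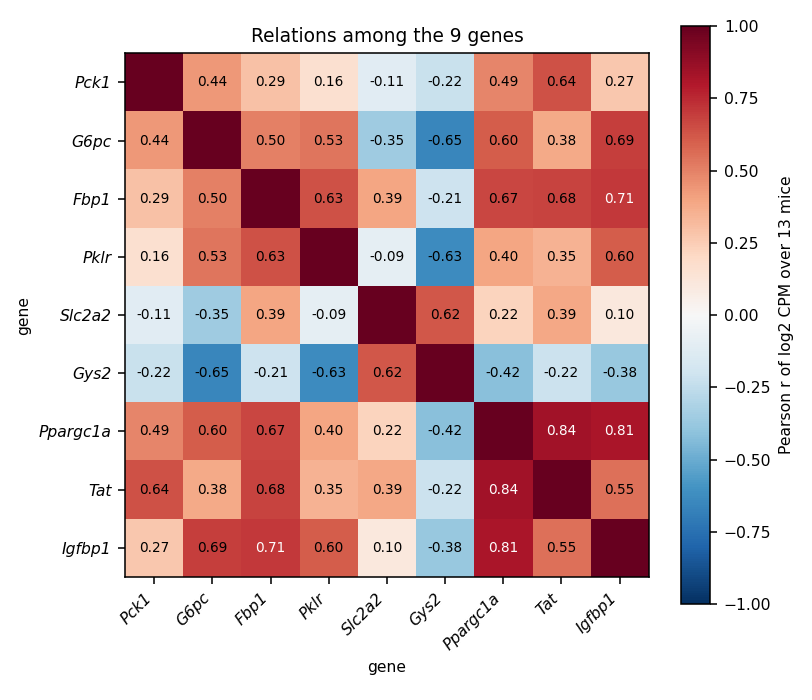
Pearson's r of log2 CPM over 13 mice for each of the 36 pairs of genes, with red for positive and blue for negative values. Ppargc1a, Tat, Igfbp1, Fbp1 and G6pc form a block of positive values from 0.38 to 0.84, and Gys2 is negative with 7 of the 8 other genes. In this block Tat with Igfbp1 (0.55), Tat with G6pc (0.38) and Fbp1 with G6pc (0.50) did not pass the threshold. The r of Tat with Igfbp1 was -0.10 without the 2 farthest mice.

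Gys2 and G6pc varied with a ratio of clock genes. The log2 ratio of Dbp to Arntl, clock genes that peak at opposite times of day, was -0.96, 6.49, 1.81 and 6.11 in ASAH− mice 1 to 4 on Etoh-Dox, 6.64, 6.78, -1.64, 0.15 and 2.70 in ASAH+ mice 1 to 5 on Etoh-Dox, and 4.45, 6.06, 5.05 and 1.60 in ASAH+ mice 1 to 4 on Etoh. Both Etoh-Dox groups held mice at either end, and 3 of 4 Etoh mice lay in the upper part, so the groups overlapped. Across the 13 mice Gys2 rose with this ratio, with an r of 0.90 (permutation p = 5e-05, adjusted p = 0.00045 over 9 relations) and a rho of 0.87 (permutation p = 0.0002, adjusted p = 0.0018). Its r was 0.84 without the 2 mice farthest from the median ratio and 0.91 with group means removed, and 99.3% of all genes tested had an r of smaller size. G6pc fell with the ratio, with an r of -0.79 (permutation p = 0.00095, adjusted p = 0.00427) and a rho of -0.79 (permutation p = 0.00219, adjusted p = 0.00985). Its r was -0.78 without the 2 farthest mice and -0.82 with group means removed, and 96.2% of genes had an r of smaller size. The ratio accounted for 81.4% of the variance of Gys2 and 61.7% of that of G6pc, beside a median of 8.89% over all genes tested.

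Ppargc1a, Igfbp1 and Pklr also fell with the ratio past the threshold of 0.1. For Ppargc1a r was -0.61 (permutation p = 0.0237, adjusted p = 0.071), rho -0.76 (permutation p = 0.00354, adjusted p = 0.0106) and r -0.73 without the 2 farthest mice. For Igfbp1 r was -0.58 (permutation p = 0.035, adjusted p = 0.0736), rho -0.68 (permutation p = 0.0123, adjusted p = 0.0277) and r -0.63 without the 2 farthest. For Pklr r was -0.57 (permutation p = 0.0409, adjusted p = 0.0736), rho -0.62 (permutation p = 0.0268, adjusted p = 0.0483) and r -0.57 without the 2 farthest. Of all genes tested 85.4%, 83.3% and 81.8% had an r of smaller size than Ppargc1a, Igfbp1 and Pklr, so relations as strong were common in the table. The relations of Pck1, Fbp1, Slc2a2 and Tat did not pass, with adjusted permutation p-values of 0.148 to 0.311 for r. The r of Fbp1 was -0.37 over all mice, -0.57 without the 2 farthest and -0.60 with group means removed. That of Slc2a2 went from 0.48 to 0.22 without the 2 farthest. With the ratio as a covariate in edgeR, 0 of the 9 genes were called in any comparison. Fbp1 by Dox then had a log2 fold change of -0.37 (unadjusted p = 0.00493, adjusted p = 0.39 by Benjamini-Hochberg), Slc2a2 -0.22 (0.0329 and 0.528) and Ppargc1a -0.38 (0.0388 and 0.535), and G6pc turned from 0.17 to -0.1002. The time of day at which each liver was taken is not given in the sources used here.

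**Figure D4:**
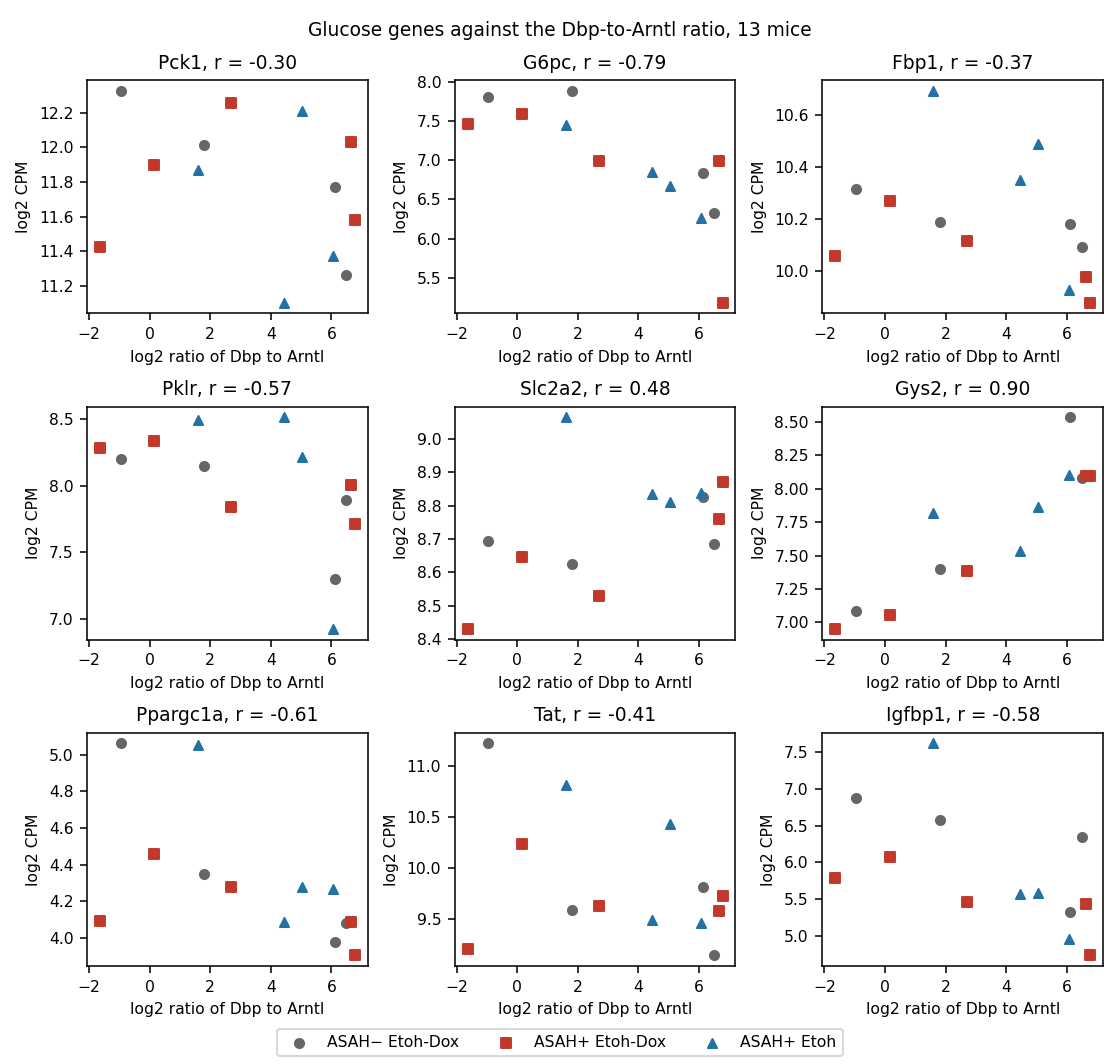
Log2 CPM of each of the 9 genes on the y axis against the log2 ratio of Dbp to Arntl on the x axis, 1 point per mouse, with Pearson's r over 13 mice above each panel. Colours and shapes mark the groups as in the plot of levels by mouse, and Gys2 rises (r = 0.90) and G6pc falls (r = -0.79) with the ratio across mice of all 3 groups.

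The genes whose log2 CPM was most like that of a member across the 13 mice are given as a description. Fbp1 was close to Hgd (r = 0.91), of tyrosine breakdown. Pklr was closest to Pygl (0.92), liver glycogen phosphorylase, and Elovl6 (0.92), of fatty acid elongation. Slc2a2 was closest to the amino acid transporter gene Slc38a4 (0.91) and to Dst (0.89). Gys2 was closest to Pdxp (0.95) and Rab3ip (0.93), G6pc to Plrg1 (0.88) and Cdc42 (0.87), and Pck1 to Lims2 (0.82) and Ahdc1 (0.81). Ppargc1a was closest to Fam222a (0.96) and Klf3 (0.94), Tat to Gm15502 and Fam222a (0.93 and 0.90), and Igfbp1 to Mapkapk2 and Nbl1 (both 0.91), although Fam222a, Gm15502, Nbl1 and Pdxp were below 1 CPM in some or all mice.

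Other genes of glucose metabolism were taken in 11 lists with 178 genes, of which 176 were tested. In each comparison 0 of these 176 were called by edgeR (0.014% of all genes were), while 9 by genotype, 21 by Dox and 16 between the uninduced groups had an unadjusted p under 0.05. Over all genes tested 2.86%, 7.29% and 9.19% were at that level in the same order, which is the share to hold beside the count of each list below. Likewise 0.887%, 2.58% and 5.50% of all genes had groups that did not overlap, and the genes named below were picked for that. Of the 25 tested genes of gluconeogenesis and pyruvate use, 21 were lower and 4 higher in ASAH+ than in ASAH− mice on Etoh-Dox, with a median log2 fold change of -0.075 and 0 at an unadjusted p under 0.05. By Dox 18 were lower and 7 higher, with a median of -0.066 and 1 gene, lower, at that level. By mean log2 deviation from the 13 mice, ASAH+ mice on Etoh-Dox were at -0.16 to 0.021. ASAH− mouse 4 and ASAH+ Etoh mouse 2 (both -0.18) lay below all of them. The other ASAH− mice were at 0.056 to 0.12, and the other Etoh mice at 0.11 to 0.20. In this list G6pc3, the glucose-6-phosphatase subunit of most other tissues, was at 4.29, 5.01, 4.94 and 4.54 CPM in ASAH− mice 1 to 4 on Etoh-Dox, against 4.01, 3.50, 3.71 and 3.82 CPM in ASAH+ mice 1 to 4 on Etoh. These groups did not overlap, as for 5.50% of all genes, with a log2 fold change of 0.32 (SE 0.12) and a Benjamini-Hochberg adjusted p of 0.468 by the quasi-likelihood test of edgeR.

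The 24 genes of glycolysis, fructose and glucose entry had medians of -0.066 by genotype, -0.0065 by Dox and 0.021 between the uninduced groups, with 0, 4 and 5 genes at an unadjusted p under 0.05. Hk3, a hexokinase of white blood cells, was lower in all 4 ASAH+ mice on Etoh (2.77, 1.99, 2.51 and 2.66 CPM) than in any mouse on Etoh-Dox, whose lowest was 2.78 CPM. Its log2 fold change was 0.89 (SE 0.26, adjusted p 0.512 by edgeR with Benjamini-Hochberg adjustment) for Etoh-Dox over Etoh in ASAH+ mice. Pdha1, of pyruvate dehydrogenase, did not overlap between ASAH− Etoh-Dox and ASAH+ Etoh mice (log2 fold change -0.22, SE 0.081). Of 18 glycogen genes tested, 12 were higher and 6 lower by genotype (median 0.064), 10 and 8 by Dox (0.021), and 7 and 11 between the uninduced groups (-0.075). Gsk3b, a kinase that restrains glycogen synthase, was lower in every ASAH− mouse on Etoh-Dox than in any ASAH+ mouse on Etoh (log2 fold change -0.30, SE 0.085, adjusted p 0.389 by edgeR with Benjamini-Hochberg adjustment). The 35 regulators of the glucose genes, among them Foxo1, Creb1, Crtc2, Hnf4a, Nr3c1, Insr and Irs2, had medians of 0.065, -0.012 and -0.068 and 1, 1 and 2 genes at an unadjusted p under 0.05.

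Amino acid breakdown, to which Tat belongs, had the lowest median by Dox of these 11 lists. Of its 22 genes, 19 were lower and 3 higher on Etoh-Dox than on Etoh in ASAH+ animals, with a median log2 fold change of -0.35 beside 0.013 over all genes, and 10 were lower at an unadjusted p under 0.05 while 0 were called. Their mean log2 deviation from the 13 mice was 0.10, -0.19, 0.35 and 0.39 in ASAH+ Etoh mice 1 to 4 and -0.18, -0.11, -0.26, -0.030 and -0.060 in ASAH+ Etoh-Dox mice 1 to 5. Etoh mice 3 and 4 stood apart, and Etoh mouse 2 lay below 4 of the 5 Etoh-Dox mice. Mat1a, which makes S-adenosylmethionine in liver, was at 3573, 4036, 3753, 3819 and 3532 CPM in ASAH+ mice 1 to 5 on Etoh-Dox and at 5578, 4299, 6042 and 6326 CPM in ASAH+ mice 1 to 4 on Etoh. For Mat1a every Etoh-Dox mouse was below every Etoh mouse, as for 2.58% of all genes tested in this comparison. The log2 fold change of Mat1a was -0.57 (SE 0.12), with a Benjamini-Hochberg adjusted p of 0.346 by the quasi-likelihood test of edgeR. By genotype 18 of the 22 were lower in ASAH+ mice (median -0.15, 2 at an unadjusted p under 0.05), and between the uninduced groups 20 of 22 were lower in ASAH− mice on Etoh-Dox (median -0.15, 3 at that level). By mean log2 deviation the ASAH− mice were at 0.20, 0.025, 0.12 and -0.36, so mouse 4 stood apart and mice 1 to 3 lay above the mean of the 13.

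The 11 genes of the insulin-like growth factor axis were all lower by genotype (median -0.17, 0 at an unadjusted p under 0.05), 7 of 11 were lower by Dox and 8 of 11 were higher between the uninduced groups. By mean log2 deviation from the 13 mice, ASAH+ Etoh-Dox mice 2 and 3 (0.16 and 0.085) lay above ASAH− mice 2 and 4 (0.028 and 0.015), and ASAH+ Etoh-Dox mice 1 and 4 were the lowest on Etoh-Dox (-0.16 and -0.29). Of the 9 genes that fasting raises, 9 were lower by genotype (median -0.19) and 8 by Dox (median -0.052), and of the 9 that food raises, 8 were higher by genotype (median 0.25) and 5 by Dox (median 0.015). Between the uninduced groups 5 of the 9 fasting genes were higher (median 0.096) and 7 of the 9 food genes lower (median -0.39) in ASAH− mice. Single mice stood apart in both lists. The food genes were at -0.88 in ASAH− mouse 4 against 0.094, -0.028 and 0.0047 in ASAH− mice 1 to 3, and the fasting genes were at -0.67 in ASAH+ Etoh-Dox mouse 2 against -0.14 to 0.19 in the other 4 of its group. Me1 of the food list did not overlap between ASAH− Etoh-Dox and ASAH+ Etoh mice, at a log2 fold change of -0.45 (SE 0.17, adjusted p 0.464 by edgeR with Benjamini-Hochberg adjustment). The 10 glucocorticoid-induced genes had medians of -0.054, -0.11 and 0.033 in the 3 comparisons. Of these, 2 by genotype, both lower, and 0 in the other comparisons had an unadjusted p under 0.05. Periportal genes, from the zone where gluconeogenesis is strongest, were lower by Dox in 9 of 12 (median -0.20, 4 at an unadjusted p under 0.05), and pericentral genes were lower in 12 of 12 by genotype (median -0.28, 2 at that level) and in 10 of 12 by Dox (median -0.22). By genotype the periportal genes were 4 higher and 8 lower (median -0.071, 1 in each direction at that level). The periportal genes had mean log2 deviations of -0.12, -0.13, 0.32 and 0.26 in ASAH+ Etoh mice 1 to 4, so mice 3 and 4 stood apart and mice 1 and 2 lay below 3 of the 5 ASAH+ Etoh-Dox mice. The pericentral genes were at -0.080, 0.40, 0.19 and -0.11 in ASAH− mice 1 to 4, and mice 1 and 4 lay below ASAH+ Etoh-Dox mouse 1 (0.14). ASAH+ Etoh-Dox mice 2 to 5 (-0.14, -0.21, -0.25 and -0.31) lay below every ASAH− mouse. Against the direction of most periportal genes by genotype, Ctsc was higher in every ASAH+ than in any ASAH− mouse on Etoh-Dox (log2 fold change 0.24, SE 0.087), and Lect2 of the pericentral list was lower (-0.30, SE 0.094), both with an adjusted p of 0.9997 by edgeR with Benjamini-Hochberg adjustment. Ctsc was also lower in every ASAH− mouse on Etoh-Dox than in any ASAH+ mouse on Etoh (log2 fold change -0.37, SE 0.092). The adjusted p of Ctsc between these uninduced groups was 0.389 by the same test. Mean Ctsc was 131 CPM in ASAH− mice on Etoh-Dox, 155 CPM in ASAH+ mice on Etoh-Dox and 169 CPM in ASAH+ mice on Etoh.

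Markers of cell types were read beside the comparison in which Fbp1 and Slc2a2 had an unadjusted p under 0.05. The 5 hepatocyte markers had 2 higher and 3 lower on Etoh-Dox than on Etoh in ASAH+ mice, with 0 at an unadjusted p under 0.05. All 5 red cell markers were higher on Etoh-Dox at that level with 0 called, led by Hbb-bs. Their sum was 689, 241, 871, 355 and 646 CPM in ASAH+ mice 1 to 5 on Etoh-Dox, 135, 159.8, 175 and 192 CPM in ASAH+ mice 1 to 4 on Etoh, and 231, 752, 1714 and 215 CPM in ASAH− mice 1 to 4 on Etoh-Dox. All mice on Etoh-Dox were above all mice on Etoh in this sum, and no red cell marker was at 0. The 6 Kupffer cell and macrophage markers were all higher on Etoh-Dox (0 at an unadjusted p under 0.05), led by Cd5l, with sums of 508, 527, 273, 444 and 273 CPM in ASAH+ mice 1 to 5 on Etoh-Dox against 355, 286, 313 and 333 CPM in ASAH+ mice 1 to 4 on Etoh. Of 5 endothelial markers 4 were lower on Etoh-Dox at an unadjusted p under 0.05, led by Clec4g, with sums of 107, 114, 95.1, 130.0 and 114 CPM and 161, 120.4, 144 and 148 CPM in the same order of mice. Stellate cell markers were 3 higher and 2 lower, cholangiocyte markers 1 higher and 4 lower, neutrophil markers 2 lower of 2 tested, T and B cell markers 5 higher of 5 tested and pancreas acinar markers 1 higher of 1 tested, with 0 at an unadjusted p under 0.05 in each of these lists. By genotype the 5 endothelial markers were all lower in ASAH+ mice (3 at an unadjusted p under 0.05), as were the 5 stellate cell markers (2), the 5 hepatocyte markers (1) and, with 0 at that level, the 6 Kupffer cell and macrophage, 5 cholangiocyte, 5 red cell and 2 tested neutrophil markers. Nearly every marker list was thus lower by genotype. T and B cell (3 higher and 2 lower) and pancreas acinar markers (1 higher of 1 tested) were the others tested. Single ASAH− mice stood apart in some sums. ASAH− mouse 3 was at 763 CPM for Kupffer cells and macrophages (other ASAH− mice 368 to 470). Its endothelial sum was 198 CPM (others 108 to 137). Its red cell sum was 1714 CPM, while ASAH− mice 1 and 4 lay below every ASAH+ mouse on Etoh-Dox. For cholangiocytes ASAH− mouse 1 was at 79.1 CPM, but mice 3 and 4 lay below ASAH+ Etoh-Dox mice 2 to 4. Every ASAH− mouse lay above every ASAH+ mouse on Etoh-Dox in the stellate cell sum. Between the uninduced groups the 6 Kupffer cell and macrophage markers (5 at an unadjusted p under 0.05) and the 5 red cell markers (5) were all higher in ASAH− mice. So were the 5 stellate cell markers (2), the 5 hepatocyte markers (1) and the 5 cholangiocyte markers (0). Endothelial markers were 2 higher and 3 lower, neutrophil markers 1 and 1, and T and B cell markers 4 and 1. The 1 pancreas acinar marker tested was higher. In the cholangiocyte sum ASAH− mice 3 and 4 lay below every ASAH+ mouse on Etoh (38.3 to 51.9 CPM). No kidney tubule or adipocyte marker had enough counts to be tested. The part of these cells in the values of Fbp1, Slc2a2 and the other genes was not tested.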

How the data were processed

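Stranded mRNA libraries of whole liver were sequenced. Reads were assigned with salmon to GENCODE M19 transcripts (GRCm38.p6) and summed to genes with tximport. The values used are the estimated counts per gene that the authors deposited, all (100%) whole numbers and so rounded, unscaled and unfiltered. Reads shared by similar transcripts are divided by estimation in this step. Transcript lengths from tximport were not used. Names, coordinates and merged exon lengths came from GENCODE M21, which holds 53355 of the 53392 gene identifiers. Here edgeR 4.0.16 in R 4.3.3 kept genes by its count filter for 3 groups (14317), scaled by TMM and fitted 3 group means over 13 mice with robust quasi-likelihood. P-values were adjusted by Benjamini-Hochberg over all genes, with 0.1 as threshold. SE was obtained as log2 fold change over the root of F. CPM used TMM-scaled library sizes. Log2 CPM used a prior count of 2. Single genes were also tested by exact two-sided permutation of mice, and correlations by 100000 permutations (scipy 1.17.1). The edgeR fit was tested on simulated data. Mice of a group differed beyond sampling noise in all 22 pairs (chi-square 17.3 to 95.4 times its degrees of freedom). The alternatives were DESeq2 1.42.0, limma-voom (limma 3.58.1), DESeq2's size factors, the compared groups alone, no count filter, an adjusted p under 0.05, Asah1 left out, the replicate number as a block, the Dbp to Arntl ratio added as covariate, and each mouse left out in turn.

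The genes named were the 9 members, for each up to 2 of the most alike genes, genes called where at most 5 were, and from the lists up to 2 genes in each direction with an unadjusted p under 0.05 and no overlap between groups. Other list genes are named as examples only. The members and lists were chosen with earlier results of these data known.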

Additional observations from a re-analysis of the deposited data

Results flagged for a closer look

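In ASAH+ Etoh mouse 4, the library with the fewest counts, 3 of the 9 genes lay far from the other 3 mice of the group by Dixon's test. Slc2a2 was at 535.8 CPM, where the others were at 449 to 457 CPM. Ppargc1a was at 33.1 CPM, where the others were at 16.9 to 19.3 CPM. Igfbp1 was at 197 CPM, where the others were at 31.0 to 48.0 CPM. This test marks about 1 in 20 groups by chance, and 36 groups of values were tested. The 3 values came from the same mouse, so they are not separate events to hold against that rate.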

How the results depend on the processing

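In no alternative was any of the 9 genes called, and the lowest adjusted p among them was 0.240 (DESeq2, Fbp1 and Slc2a2 by Dox). Of 594 fitted values, 552 kept the direction of the fit described and 42 did not, in 13 of 27 results. Apart from left-out mice, the reversed values were few. By Dox, G6pc was -0.1002 with the clock ratio as covariate and Pklr 0.0070 with the replicate block. Between the uninduced groups Gys2 was -0.055 by limma-voom and -0.0058 with the replicate block, and Tat, fitted at 0.0063, was -0.0073 by DESeq2 on all mice, -0.0074 by DESeq2 on the compared groups, -0.0073 with DESeq2 size factors, -0.0025 by edgeR on the compared groups, -0.11 by limma-voom, -0.0075 without a count filter, -0.0077 without Asah1, -0.087 with the replicate block and -0.19 with the clock ratio. With single mice left out, the log2 fold changes by genotype ran from -0.19 to 0.15 for Pck1, -0.031 to 0.23 for Pklr, -0.11 to 0.0050 for Slc2a2, -0.48 to 0.017 for Gys2, -0.38 to 0.032 for Ppargc1a and -0.69 to 0.18 for Tat. By Dox they ran from -0.0026 to 0.43 for G6pc, -0.36 to 0.037 for Pklr and -1.04 to 0.16 for Igfbp1, and between the uninduced groups from -0.26 to 0.23 for Gys2, -0.33 to 0.20 for Ppargc1a, -0.63 to 0.29 for Tat and -0.22 to 0.97 for Igfbp1. Without a change of direction, single mice moved Gys2 by Dox between -0.40 and -0.13, and between the uninduced groups Fbp1 between -0.32 and -0.094 and Pklr between -0.49 and -0.073. The genes called over the whole table, 2 in each comparison, moved more. DESeq2 called 11 by genotype, 95 by Dox and 173 between the uninduced groups, and 11, 114 and 173 on the compared groups alone. EdgeR on the compared groups called 1, 3 and 0, limma-voom 2, 2 and 1, edgeR without a count filter 2, 4 and 2, without Asah1 1, 1 and 2, with the replicate block 1, 2 and 0, with the clock ratio 2, 2 and 1, and at an adjusted p under 0.05 2, 2 and 0. With single mice left out the counts were 1 to 2 by genotype, 2 to 8 by Dox (8 without ASAH+ Etoh mouse 2) and 0 to 2 between the uninduced groups. Replicate numbers belong to different animals, and mice with the same number were not alike (mean r of -0.133, 0.057 and -0.062 in the 3 comparisons). The cause of these movements was not tested.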
